A study of Mus musculus with 37 samples.

Results

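Rfpl4 and Rfpl4b are a pair of RET finger protein-like genes that were picked out of the 29294 gene symbols listed in 4 RNA-seq tables of mouse oocytes and 2-cell embryos, and both were present in all 4 tables and all 31 RNA-seq libraries. They were selected on their RNA levels in these same libraries, so the levels given here are a description and carry no test. The groups were germinal vesicle (GV) oocytes labelled Hira_Het (ZH Het, n = 4) and Hira_KO (ZH KO, n = 4), GV oocytes labelled Cabin1_Het (CabZ Het, n = 4) and Cabin1_KO (CabZ KO, n = 4), 2-cell embryos of the same CabZ genotypes (n = 4 each), and 2-cell embryos labelled GFP control (n = 4) and Zscan4 overexpression (Zscan4 OE, n = 3). All were on a C57BL/6 background, and animal ages were not given. Hira and Cabin1 are subunits of the complex that places histone H3.3 into chromatin outside replication. In the ZH and CabZ lines, loxP-flanked exons are removed by a Cre transgene under the Zp3 promoter, which is active in growing oocytes, and the Het controls carried the same transgene with 1 floxed allele. According to the methods, oocytes were pooled for each library, while the labels speak of individual cells. The injected embryos came from wild-type GV oocytes given RNA for Zscan4d or GFP, matured in vitro and activated without sperm. How the CabZ 2-cell embryos of the RNA-seq were produced is not given in the sources used here. Accessible chromatin was measured by ATAC-seq in CabZ Het and CabZ KO GV oocytes (n = 3 each).

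RFPL4 is an oocyte protein with a RING-type finger and a B30.2 (PRYSPRY) domain, the architecture it shares with a large part of the TRIM family of ubiquitin ligases. It is known to bind the E2 ubiquitin-conjugating enzyme UBE2A, the proteasome subunit PSMB1 and cyclin B1, which places it beside the machinery that degrades cyclin B when meiosis proceeds. GV oocytes live on stored maternal RNA, which is removed after maturation, while the 2-cell embryo starts transcription from its own genome. Rfpl4b is a related gene whose product is less well described.

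The RNA-seq libraries held between 5819313 and 21869858 reads on the rows of their tables, estimated from the value that 1 read contributes. The oocyte markers were all detected in the GV groups (15 of 15 in every library). Of the granulosa and cumulus markers, Foxl2 and Fshr stayed at or below 1.12 FPKM in all libraries whose tables list them and Amh was in none of the tables. The sum of that whole list was at most 6.69 FPKM, and it was higher without overlap in ZH KO (2.60 to 4.72 FPKM) than in ZH Het oocytes (0.673 to 1.05). Cabin1 was lower in CabZ KO than in CabZ Het at both stages without overlap (0.0125 to 0.0482 against 0.0891 to 0.159 FPKM in GV oocytes, 0.0640 to 0.181 against 0.229 to 0.455 in 2-cell embryos). It was also lower without overlap in ZH KO (0.0640 to 0.102 FPKM) than in ZH Het oocytes (0.259 to 0.346), so that its drop was not particular to the CabZ line. Hira lay between 0 and 0.0117 FPKM in all ZH libraries, too low to check the ZH labels. Zscan4d was not higher in the libraries labelled Zscan4 OE (70.3 to 84.3 FPKM) than in those labelled GFP (69.4 to 149). The reads of these 2-cell embryos thus do not show the label, and it is used here only as a label. The paper reports more Zscan4 RNA and protein in injected than in uninjected oocytes, an earlier stage than these libraries. CabZ KO 2-cell replicate 4 stood apart from its group: its summed level of 15 oocyte markers was 3096 FPKM against 1326 to 1674 in the other CabZ KO embryos, and its sum of 14 markers of the 2-cell embryo was 760 against 1894 to 1974. In CabZ Het 2-cell embryos these sums were 1690 to 2064 and 644 to 1129. Replicate 4 thus lay above the Het range for the oocyte markers but within it for the 2-cell markers. The main values that include that library are also given without it.

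Both genes lie on the minus strand of GRCm38. Rfpl4 (ENSMUSG00000035191.15) spans chr7:5109787-5116950 and has 3 annotated transcripts of 3 exons each. Rfpl4b (ENSMUSG00000094311.1) spans chr10:38820541-38821779 and has 1 transcript of 3 exons. No other row of the tables overlaps either gene. Exons cover 24.0% of the Rfpl4 span and 85.1% of the Rfpl4b span, and since the deposited FPKM divide by the whole span, Rfpl4 is understated beside Rfpl4b unless values are expressed per exon base. None of the 1751 distinct 50-base words of the spliced Rfpl4 transcripts and none of the 1005 of Rfpl4b occurred in an annotated transcript of another gene, and the pair shared 0 such words, so that reads within exons can be told apart.

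The bases upstream of both genes are shown as the stretch in which core promoter letters were looked for. They are from RefSeq (GRCm38.p6), read 5′ to 3′ on the minus strand, and stop before the first annotated transcribed base. Capitals mark a match, on either strand, to the CCAAT box, to the TATA-type letters TATAAA or TATATAA, or to the E-box CANNTG.
Rfpl4, chr7:5116951-5117161: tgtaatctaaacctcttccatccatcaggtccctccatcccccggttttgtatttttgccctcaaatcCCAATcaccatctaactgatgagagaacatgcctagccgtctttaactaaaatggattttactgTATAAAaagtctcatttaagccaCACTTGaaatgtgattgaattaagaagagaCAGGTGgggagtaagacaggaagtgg
Rfpl4b, chr10:38821780-38822029: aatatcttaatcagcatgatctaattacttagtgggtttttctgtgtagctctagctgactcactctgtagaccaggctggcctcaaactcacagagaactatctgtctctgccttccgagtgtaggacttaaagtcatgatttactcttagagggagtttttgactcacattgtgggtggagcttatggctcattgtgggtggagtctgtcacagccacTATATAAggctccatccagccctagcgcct

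The motif search covered the RefSeq windows of 300 bases, 250 before and 50 after the start, of which there were 32851. The Rfpl4 window held TATAAA at 118 bases upstream of the RefSeq start (present in 13.6% of all windows), CCAAT at 182 and 34 bases upstream (37.4%) and CANNTG at 95 and 65 bases upstream and 6 bases downstream (72.3%). The E-box at 65 bases is also a CAGGTG (20.2%). The Rfpl4b window held TATATAA at 30 bases upstream (3.24%), letters that were added to the search after this sequence had been seen and that the Rfpl4 window lacked, and 1 CANNTG at 42 bases downstream. TAATTG, the element named for the oocyte factor NOBOX (8.0% of all windows), CACGTG (7.15%, itself an E-box) and TGCACAC, the repeat named for Zscan4 binding (4.40%), were not in either window. A match is a run of letters and not a shown binding site.

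Rfpl4 was an abundant oocyte RNA that was lower in ZH KO than in ZH Het oocytes, alike in both CabZ genotypes of GV oocytes, and higher in CabZ KO than in CabZ Het 2-cell embryos. In ZH Het oocytes it stood at 163, 197, 190 and 184 FPKM (mean 183 ± 14.6, SD, n = 4). In ZH KO oocytes it stood at 69.8, 53.0, 41.1 and 55.7 FPKM (54.9 ± 11.8, n = 4). Every ZH KO library lay below every ZH Het library, and the KO mean was 29.9% of the Het mean, a difference of -1.74 on the log2(FPKM + 1) scale. Of the 5792 genes tested in this table, 23.2% had all 4 KO libraries below all 4 Het libraries. In pooled bulk samples, fewer contributing cells and less RNA per cell cannot be told apart.

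In CabZ GV oocytes Rfpl4 was at 349, 372, 367 and 347 FPKM in Het (359 ± 12.7, n = 4) and at 291, 305, 398 and 372 FPKM in KO (342 ± 51.6, n = 4). These groups overlapped, the difference was -0.08 on the log2 scale, and the KO libraries were spread over a wider range than the Het libraries. The gene thus differed between Het and KO by more than the spread in ZH oocytes and by less than the spread in CabZ oocytes, and whether the ZH and CabZ differences differ was not tested, since each table was normalised by itself.

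In CabZ Het 2-cell embryos Rfpl4 had 83.9, 38.1, 43.2 and 87.2 FPKM (63.1 ± 26.1, n = 4). In CabZ KO 2-cell embryos it had 117, 174, 174 and 321 FPKM (197 ± 87.3, n = 4). All KO libraries lay above all Het libraries, with a ratio of 3.11 and a log2 difference of 1.62. Of 7798 genes tested, 22.9% had all KO libraries above all Het libraries. The highest value belonged to KO replicate 4, and without it the KO mean was 155 ± 33.3 FPKM, 2.46 times the Het mean. The 2-cell libraries of each genotype varied more among themselves than the GV libraries, with a coefficient of variation of 41.3% in Het and 44.4% in KO against 3.54% and 15.1% in GV oocytes.

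In injected 2-cell embryos Rfpl4 was at 683, 590, 717 and 730 FPKM in GFP (680 ± 63.2, n = 4) and at 714, 733 and 779 FPKM in the libraries labelled Zscan4 OE (742 ± 33.4, n = 3). The groups overlapped, with a log2 difference of 0.13. By FPKM over the gene span, Rfpl4 took rank 31 of 15855 rows in GFP embryos and rank 65 of 19033 rows in CabZ Het oocytes, but rank 538 of 24305 rows in CabZ Het 2-cell embryos.

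In the CabZ line Rfpl4b had the opposite order between the stages. It was near 0 in Het GV oocytes and far more abundant in CabZ 2-cell embryos. Every ZH KO library had more of it than any ZH Het library, and it was nearly lost from the libraries labelled Zscan4 OE. In ZH Het oocytes the libraries had 0.174, 0, 0.292 and 0.754 FPKM, which rest on 3, 0, 6 and 19 reads, and the library with 0 reads allows up to 0.189 FPKM (3 reads). In ZH KO oocytes they had 1.24, 32.0, 2.07 and 5.50 FPKM, on 24, 637, 34 and 93 reads. All 4 KO libraries lay above all Het libraries, which was also so for 23.7% of the genes tested in this table. The means were 0.305 ± 0.323 and 10.2 ± 14.7 FPKM (n = 4 each, log2 difference 2.28), but KO replicate 2 alone carried most of the KO mean. Without it the KO mean was 2.94 ± 2.26 FPKM and the ratio to Het was 9.63 in place of 33.5, while without Het replicate 4, the highest of its group, the ratio was 65.7.

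In CabZ GV oocytes Rfpl4b had 0.324, 0.364, 1.09 and 1.06 FPKM in Het (0.708 ± 0.422, n = 4) and 0.484, 0.616, 0.758 and 1.24 FPKM in KO (0.774 ± 0.330, n = 4). These values rest on 5 to 15 reads per library and overlapped, so that a difference was not detectable at this depth. The highest CabZ KO library (1.24 FPKM) was below the lowest ZH KO library on the scale of table reads (1.87 FPKM).

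In CabZ Het 2-cell embryos Rfpl4b had 485, 530, 398 and 296 FPKM (427 ± 103, n = 4). In CabZ KO 2-cell embryos it had 205, 321, 455 and 45.9 FPKM (257 ± 174, n = 4). The groups overlapped, since KO replicates 2 and 3 lay within the Het range, and the log2 difference was -1.11. The lowest value was that of KO replicate 4, the library with the highest Rfpl4, and without it the KO mean was 327 ± 125 FPKM, with a ratio to the Het mean of 0.765 in place of 0.601 and a log2 difference of -0.42.

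In GFP embryos Rfpl4b had 24.6, 26.8, 37.8 and 31.2 FPKM (30.1 ± 5.80, n = 4). In the libraries labelled Zscan4 OE it had 1.41, 1.13 and 2.55 FPKM (1.70 ± 0.751, n = 3). The highest of these was far below the lowest GFP library, the mean was 5.64% of that of GFP, and the log2 difference was -3.54. All libraries labelled Zscan4 OE lay below all GFP libraries for 10.5% of the 4293 genes tested. The ratio of GFP to Zscan4 OE means lay between 15.2 and 23.7 when any 1 library was left out.

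**Figure D1:**
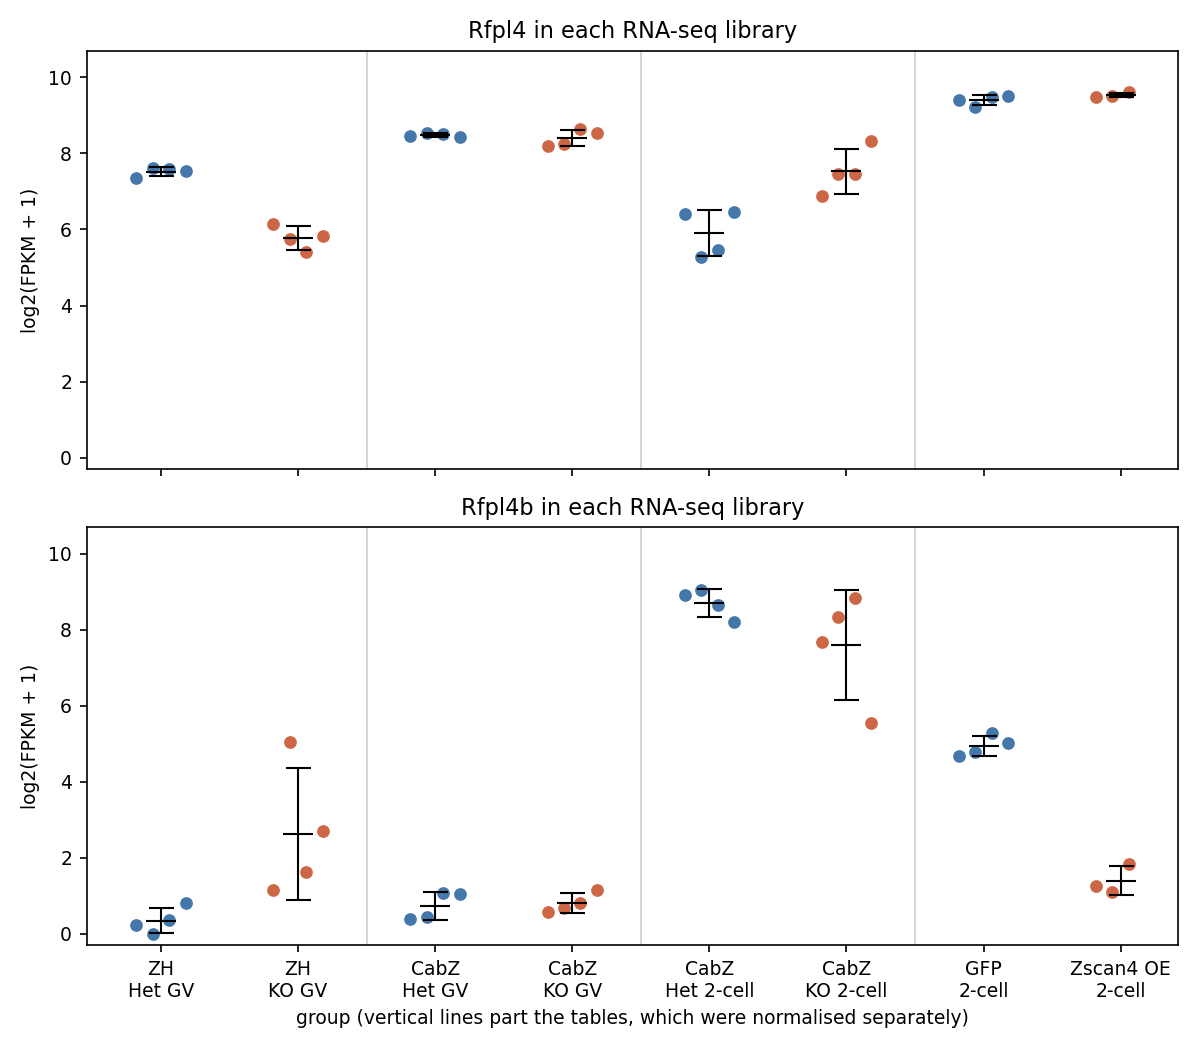
Level of Rfpl4 (top) and Rfpl4b (bottom) as log2(FPKM + 1) in each of the 31 RNA-seq libraries (points) by group (horizontal axis), with the group mean and SD as black bars; blue marks control and orange mutant or Zscan4 OE groups. Rfpl4 is lower in all 4 ZH KO libraries and higher in all 4 CabZ KO 2-cell libraries than in their controls, while Rfpl4b is near 0 in Het GV oocytes, high in CabZ 2-cell embryos and below the 4 GFP libraries in all 3 labelled Zscan4 OE.

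Set on 1 scale, each library's values divided by the reads on the rows of its own table, the order of Rfpl4 ran from Zscan4 OE 2-cell (1099 ± 41.2 FPKM) and GFP 2-cell (1018 ± 87.0) through CabZ Het GV (359 ± 12.7), CabZ KO GV (342 ± 51.6), ZH Het GV (246 ± 19.4), CabZ KO 2-cell (197 ± 87.3) and ZH KO GV (82.1 ± 18.6) to CabZ Het 2-cell (63.1 ± 26.1). Neighbours in this order whose libraries overlapped were the pair of injected groups, both CabZ GV groups, ZH Het GV with CabZ KO 2-cell, and ZH KO GV with CabZ Het 2-cell. The tables were normalised separately, so levels across them were not tested. The activated GFP embryos and the CabZ Het embryos are both 2-cell controls, yet the lowest GFP library (891 FPKM) was above every CabZ library of either stage, whose highest was 398. The production of the embryos, the table and the injection cannot be told apart in that contrast.

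The order of Rfpl4b on the same scale began with CabZ Het 2-cell (427 ± 103 FPKM) and CabZ KO 2-cell (257 ± 174), followed by GFP 2-cell (45.0 ± 7.91), ZH KO GV (15.1 ± 21.6) and Zscan4 OE 2-cell (2.51 ± 1.10), and ended with CabZ KO GV (0.774 ± 0.330), CabZ Het GV (0.708 ± 0.422) and ZH Het GV (0.410 ± 0.435). With all libraries, only the step from Zscan4 OE 2-cell to CabZ KO GV parted neighbours without overlap. CabZ KO 2-cell met the GFP range (37.5 to 55.4 FPKM) only through replicate 4 (45.9), the other libraries being at 205 to 455 (327 ± 125). ZH KO GV met that range only through replicate 2 (47.3), the other libraries being at 1.87 to 8.34. Without those libraries GFP 2-cell was apart from both neighbours. For Rfpl4, CabZ KO 2-cell without replicate 4 (155 ± 33.3) was below every ZH Het GV library.

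Between stages of the CabZ line, Rfpl4 fell from 359 FPKM in Het oocytes to 63.1 in Het 2-cell embryos, a ratio of 5.68, and from 342 to 197 in KO, a ratio of 1.74. The log2 differences from GV to 2-cell were -2.58 in Het and -0.88 in KO. Rfpl4b went the other way, with log2 differences of 7.97 in Het and 6.79 in KO. Without KO 2-cell replicate 4 the KO difference was -1.15 for Rfpl4, a ratio of 2.20, and 7.47 for Rfpl4b. Scaling both tables to a common median over abundant genes gave -2.50 and -0.54 for Rfpl4 and 8.05 and 7.13 for Rfpl4b.

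Counted per exon base, which allows the pair to be compared within a library, Rfpl4b made up 48.9% to 79.7% of the summed level of both genes in CabZ Het 2-cell embryos and 3.87% to 42.4% in CabZ KO 2-cell embryos, with no overlap between the genotypes. Taken singly, Rfpl4b overlapped between these genotypes, while Rfpl4 was higher in KO without overlap, as were 22.9% of the genes tested. The lowest share was that of KO replicate 4, and the other KO libraries had 33.1%, 34.1% and 42.4%. In GFP embryos the share was 1.00% to 1.46%, and in the libraries labelled Zscan4 OE 0.0434% to 0.0921%. In GV oocytes it was at most 0.115% in every group but ZH KO, where it was 0.498% to 14.5%.

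**Figure D2:**
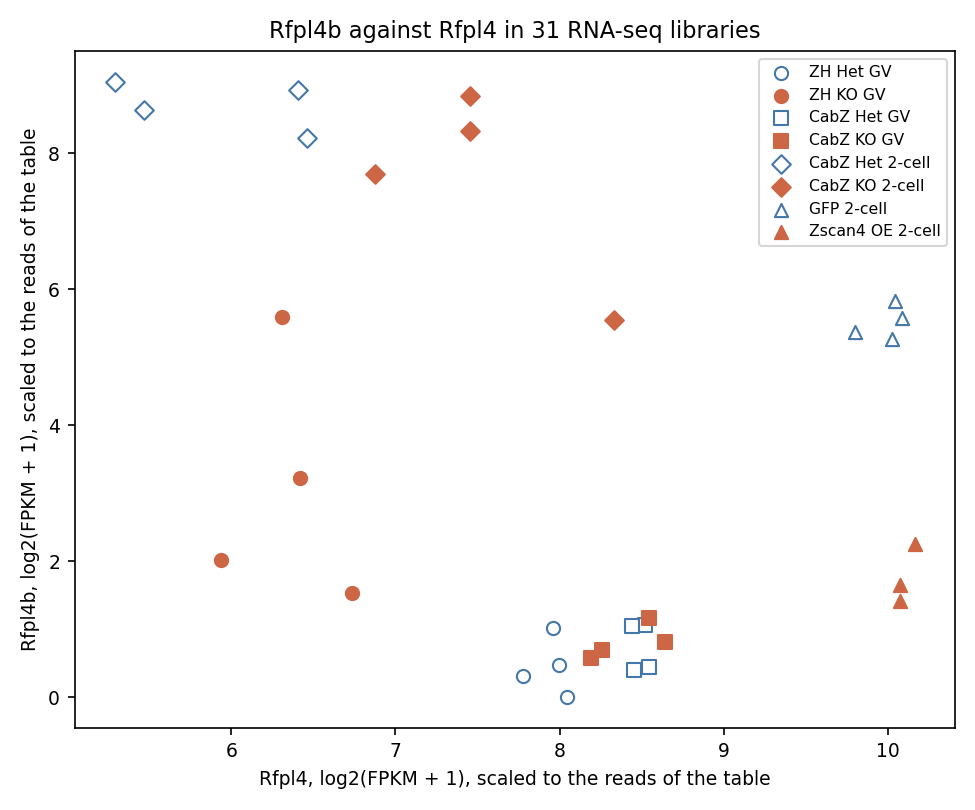
Rfpl4b against Rfpl4 in 31 RNA-seq libraries, both as log2(FPKM + 1) scaled to the reads of the table; open symbols are controls and filled symbols mutant or Zscan4 OE groups, with 1 shape per table. CabZ 2-cell libraries lie at high Rfpl4b and low Rfpl4, CabZ GV libraries at the reverse, and CabZ KO 2-cell replicate 4 (321 FPKM of Rfpl4, 45.9 of Rfpl4b) lies between them.

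The 3 genes whose products RFPL4 is known to bind, and Ube2b as the close relative of Ube2a, were tested with limma over all genes of each table. In CabZ KO 2-cell embryos 2 of the 3, Psmb1 and Ccnb1, fell beside the higher Rfpl4, and so did Ube2b (37.4% of all genes tested in this comparison were called in either direction, 1320 up, 16.9%, and 1594 down, 20.4%, or 1757 up and 1126 down after median scaling and 197 and 111 on the values as they stand). Psmb1, a subunit of the 20S proteasome core, went from 23.3 ± 3.95 to 5.55 ± 2.70 FPKM (log2 difference -2.01, SE 0.36, limma adjusted p = 0.0016, n = 4 each). Ccnb1, which encodes cyclin B1, went from 141 ± 20.8 to 43.3 ± 7.72 FPKM (-1.68, SE 0.20, limma adjusted p = 0.00028). Ube2b went from 19.2 ± 2.64 to 7.82 ± 1.74 FPKM (-1.21, SE 0.20, limma adjusted p = 0.00099), but after median scaling its difference was -0.97, under the 2-fold threshold. Ube2a was at 13.6 ± 4.81 and 8.64 ± 1.05 FPKM (-0.55, limma adjusted p = 0.074). Psmb1, Ccnb1 and Ube2b were also called without KO replicate 4.

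In ZH KO oocytes (17.7% of genes tested were called in either direction, 606 up, 10.5%, and 417 down, 7.2%, or 471 and 627 after median scaling and 958 and 372 when scaled to table reads) none of these 4 genes passed both thresholds. Ccnb1 went from 191 ± 22.1 to 103 ± 14.6 FPKM (-0.89, SE 0.14, limma adjusted p = 0.00089), short of 2-fold but past it with median scaling (-1.04). Psmb1 was at 13.2 ± 1.82 and 20.3 ± 2.45 FPKM (0.58, limma adjusted p = 0.0066), Ube2a at 11.9 ± 1.08 and 8.63 ± 0.492 (-0.42, adjusted p = 0.012) and Ube2b at 5.03 ± 0.765 and 7.29 ± 1.34 (0.45, adjusted p = 0.036). In CabZ KO GV oocytes (2.9% of genes called, 2.07% upward) the differences of the 4 lay between -0.46 and 0.13, and none was called. The lowest was that of Ube2a, at 12.6 ± 1.07 against 17.8 ± 2.93 FPKM (-0.46, limma adjusted p = 0.042, up to 0.121 without 1 library), short of 2-fold. In the libraries labelled Zscan4 OE (1.44% of genes called, 1.42% downward, 62 in all and 18 to 99 when 1 library was left out) Ccnb1 was at 175 ± 9.02 against 193 ± 35.8 FPKM (-0.12, limma adjusted p = 0.72), and Ube2a and Ube2b differed by -0.03 and -0.09, signs that turn under median scaling. Psmb1 was below the filter there, at 0.457 ± 0.176 FPKM against 0.800 ± 0.146.

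**Figure D3:**
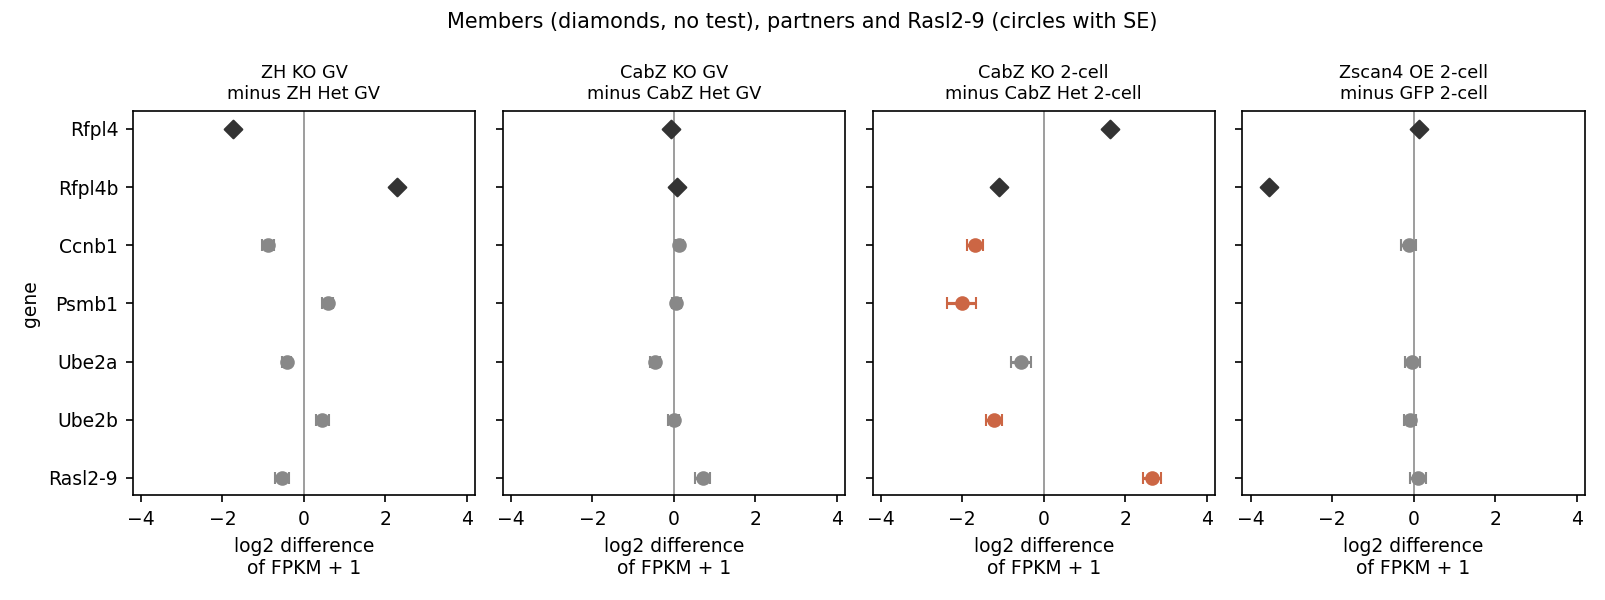
Log2 difference of FPKM + 1 (horizontal axis) between mutant or Zscan4 OE and control libraries in the 4 comparisons (panels) for Rfpl4 and Rfpl4b (diamonds, no test), the binding partners Ccnb1, Psmb1 and Ube2a, the Ube2a relative Ube2b and the neighbour Rasl2-9 (circles with SE; orange where called by limma). Ccnb1, Psmb1 and Ube2b are called lower and Rasl2-9 higher in CabZ KO 2-cell embryos, where Rfpl4 is higher by 1.62, and none of these 4 is called in the other panels.

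The other genes of the degradation pathway were read from lists, each beside the median over all genes tested. Of 20S proteasome subunits, a list without the Psmb1 given above, 6 of 14 tested fell and none rose in CabZ KO 2-cell embryos (median -0.95, all genes -0.11). Of all genes 20.4% fell in this comparison. With median scaling 5 of the 14 fell. Psmb5, a catalytic subunit, had the largest change, from 21.5 ± 9.99 to 3.18 ± 0.802 FPKM (-2.33, SE 0.33, limma adjusted p = 0.0005), followed by Psma6 (-2.02), Psmb10 (-1.91), Psmb4 (-1.52) and Psma1 (-1.33). Psmb7 (-1.24), named after its values were seen, was just short of 2-fold with median scaling (-0.999). None of 13 passed in ZH KO oocytes, with 12 of 13 differences above 0 and a median of 0.29 (all genes -0.04). None of 13 passed in CabZ KO GV oocytes and none of 9 in the libraries labelled Zscan4 OE.

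Of the list on cyclin B and the anaphase-promoting complex (APC/C), 2 of 31 tested rose and 5 fell in ZH KO oocytes (median -0.03, all genes -0.04). Of all genes 10.5% rose and 7.2% fell there. The share of the list that rose was thus lower and the share that fell higher, which was not tested. Cks2, which binds cyclin-dependent kinases, went from 37.3 ± 10.1 to 140 ± 29.4 FPKM (1.89, SE 0.22, limma adjusted p = 0.00013), and the APC/C subunit Cdc16 rose by 1.34. Bub1b, a checkpoint kinase-like protein that restrains the APC/C, fell (-1.85), as did the mitotic kinase Plk1 (-1.36), the APC/C subunit Anapc16 (-1.26), Fbxo43, an inhibitor of the APC/C (-1.15), and Mos (-1.12). Among 2-cell embryos, 2 of 28 rose and 5 fell in CabZ KO (median -0.07, all genes -0.11), beside 16.9% and 20.4% of all genes. The share that fell was close to that of all genes and the share that rose was below it, also without a test. Mos, the kinase that holds the egg in metaphase, rose from 1.65 ± 2.07 to 17.3 ± 9.08 FPKM (2.92, SE 0.53, limma adjusted p = 0.0016), while Cdk1, the partner kinase of cyclin B, fell (-2.03), as did the APC/C enzyme Ube2c (-1.69), the checkpoint gene Bub3 (-1.28), the phosphatase gene Cdc25c (-1.26) and the cyclin gene Ccna2 (-1.09). Cks2 rose too (1.08), but was short of 2-fold without KO replicate 4 (0.90) or Het replicate 2 (0.97), and Ccna2 was short of it with median scaling (-0.85) or without Het replicate 2 (-0.98). Fbxo43, Ccna2 and, in 2-cell embryos, Cks2 were named after their values were seen. None of 32 passed in CabZ KO GV oocytes and none of 23 in the libraries labelled Zscan4 OE.

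Of the 20 E2 enzymes and ubiquitin genes tested in CabZ 2-cell embryos, 4 fell in KO, the ubiquitin-ribosomal fusion gene Rps27a (-1.65), Ube2l3 (-1.54), Ube2t (-1.50) and Ube2j2 (-1.38), and Ube2m, the E2 for NEDD8, rose (1.37), with a median of -0.22 beside -0.11 for all genes. The share that fell is close to the 20.4% of all genes, so the count is no result about the list. None of 19 passed in CabZ KO GV oocytes and none of 14 in the libraries labelled Zscan4 OE.

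Among the TRIM genes with the same PRYSPRY domain as RFPL4, 7 of 39 were tested in each table. Of these, 2 fell in ZH KO oocytes (7.2% of all genes fell), Trim75 from 66.8 ± 13.2 to 11.7 ± 5.79 FPKM (-2.52, SE 0.32, limma adjusted p = 0.00023) and Trim60 from 8.26 ± 1.08 to 2.67 ± 0.654 FPKM (-1.34, limma adjusted p = 0.00014), and all 7 differences were below 0 (median -0.73, all genes -0.04). Between CabZ 2-cell embryos, where 16.9% of all genes rose and 20.4% fell, Trim60 (1.32) and Trim15 (1.53) rose and Trim43a (-2.22), Trim43b (-2.01) and Trim43c (-1.65) fell, the last no longer called without Het 1 or Het 2 (limma adjusted p 0.0538 and 0.0518). In the libraries labelled Zscan4 OE, where 1.42% of all genes fell, Trim43b was at 2.15 ± 1.13 against 10.1 ± 1.60 FPKM (-1.86, SE 0.25, limma adjusted p = 0.011) and Trim43a at 0.657 ± 0.569 against 3.81 ± 1.20 (-1.55, SE 0.27, adjusted p = 0.031). Without the filter on low values their limma adjusted p were 0.0963 and 0.155, and the Trim43a call was lost in 5 of 7 fits that left out 1 library (GFP A, B or D, Zscan4 OE A or B) and that of Trim43b without GFP A (0.0535). None of the 7 passed in CabZ KO GV oocytes. The Trim43 genes are near-identical copies, so reads may be split among them.

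Oocyte and embryo markers differed between groups too, in some comparisons together with a member of the pair and in others without it. Where Rfpl4 was lower, in ZH KO oocytes, 5 of 15 oocyte genes fell and 1 rose (median -0.75), beside 7.2% and 10.5% of all genes. Bmp15, an oocyte growth factor, went from 391 ± 83.6 to 89.6 ± 32.3 FPKM (-2.16, SE 0.26, limma adjusted p = 0.00015), and Oosp1 (-1.96), the transcription factor gene Nobox (-1.53), Zar1 (-1.24) and Mos (-1.12) fell too. The call of Nobox was lost without the filter on low values (limma adjusted p = 0.109) and without any 1 of the Het libraries, KO 1 or KO 4 (up to 0.084). That of Zar1 was lost without the filter (limma adjusted p = 0.0856) and without Het 1, Het 2, KO 1 or KO 4 (up to 0.0666, or under 2-fold at -0.85 without KO 1). Mos was short of 2-fold without KO 1 (-0.98) and when scaled to table reads (-0.97). The gene that rose was Figla, an oocyte transcription factor, named after its values were seen (6.65 ± 1.23 to 14.3 ± 1.84 FPKM, 1.01, SE 0.15, limma adjusted p = 0.00056), and its difference was under 2-fold with median scaling (0.86) and without Het 1, Het 2, KO 1 or KO 4 (0.94 to 0.98). The summed oocyte markers were 6076 to 6747 FPKM in ZH Het and 4472 to 5717 in ZH KO. Where Rfpl4 was higher, in CabZ KO 2-cell embryos, 7 of 14 rose and none fell (median 1.21; 16.9% of all genes rose), with the same count without KO replicate 4. Ooep, of the subcortical maternal complex, went from 33.9 ± 15.4 to 228 ± 147 FPKM (2.64, SE 0.42, limma adjusted p = 0.00092, and 2.25 without KO replicate 4), H1foo, the oocyte linker histone, rose by 2.03, Gdf9 by 1.89 and Zar1 by 1.70. Their summed level was 1690 to 2064 FPKM in Het and 1326 to 3096 in KO, and without KO replicate 4 it was 1326 to 1674 in KO, below every Het library although 7 of the genes rose. None of 15 passed in CabZ KO GV oocytes, where Rfpl4 overlapped, but 14 differences were below 0 and 1 above (median -0.27, all genes -0.02). The summed oocyte markers there were 5814.5 to 6754 FPKM in Het and 5545 to 5697 in KO, without overlap. None of 14 passed in the libraries labelled Zscan4 OE, where 12 differences were above 0 and 2 below (median 0.22, all genes 0.03). The part of these shifts in the Rfpl4 values was not tested.

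Of the markers of the 2-cell embryo, 7 of 9 rose in ZH KO oocytes (10.5% of all genes), where Rfpl4b was higher (median 2.73). The largest changes were those of Gm5039 (4.35), an Eif1a-like gene, Zscan4c (4.17), Zscan4d (3.99), Zscan4f (3.68) and Usp17lc (2.73), each at limma adjusted p of at most 0.00044. In CabZ KO GV oocytes, where Rfpl4b overlapped between the groups, 2 of 7 rose (2.07% of all genes), Gm5039 (2.87, limma adjusted p = 1.1e-05) and Zscan4d (1.33, adjusted p = 0.0061). Between CabZ 2-cell embryos, Gm5039 (2.92) and Usp17la (1.27) rose and Tdpoz4 (-2.02), Tdpoz1 (-1.52) and Dppa2 (-1.10) fell among 14 tested. Of all genes 16.9% rose and 20.4% fell there, so these counts are no result about the list. Without KO replicate 4 the counts were 5 up and 2 down, Dppa2 being short of 2-fold (-0.92). Tdpoz4 did not pass without the filter (limma adjusted p = 0.0582). In the libraries labelled Zscan4 OE only Tdpoz1 of 14 fell, beside 1.42% of all genes (2.99 ± 0.405 to 0.487 ± 0.234 FPKM, -1.43, SE 0.17, limma adjusted p = 0.0089, and 0.0638 without the filter, n = 4 and 3), although all 14 differences were below 0 (median -0.62, all genes 0.03). The summed level of these markers was 1128 to 1540 FPKM in GFP and 468 to 1009 in Zscan4 OE. In ZH oocytes it was 110 to 158 in Het and 443 to 683 in KO. In CabZ GV oocytes it was 149 to 164 in Het and 245 to 310 in KO. In CabZ 2-cell embryos it was 644 to 1129 in Het and 760 to 1974 in KO, where the Rfpl4b mean was lower. Without KO replicate 4 it was 1894 to 1974 in KO. The part of these sums in the Rfpl4b values was not tested. The Zscan4, Usp17l and Tdpoz genes are multicopy and their reads may be split.

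None of the granulosa and cumulus markers reached the filter in either GV table or in the injected embryos. In CabZ 2-cell embryos 2 were tested and neither was called. Besides the ZH values given above, their summed level in FPKM was 0.711 to 1.15 and 0.981 to 1.46 in CabZ GV oocytes, 4.98 to 6.69 and 3.00 to 5.95 in CabZ 2-cell embryos, and 0.539 to 0.652 and 0.322 to 0.573 in injected embryos, each as control and then mutant or Zscan4 OE. The part of the higher sum in ZH KO in the values of the pair was not tested.

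The genes that lie next to the pair did not share its pattern throughout. Rasl2-9, a Ran-like GTPase gene whose nearest base is 7988 bases upstream of Rfpl4 on the same strand, rose in CabZ KO 2-cell embryos from 13.3 ± 3.17 to 88.5 ± 17.7 FPKM (2.65, SE 0.22, limma adjusted p = 0.00012), as Rfpl4 was higher there. In ZH KO oocytes it was at 10.1 ± 2.72 against 14.7 ± 0.438 FPKM (-0.54, limma adjusted p = 0.028) and in CabZ KO GV oocytes at 33.8 ± 6.95 against 20.3 ± 4.50 (0.71, adjusted p = 0.031), both under 2-fold. Epn1, 11609 bases downstream, U2af2 and the 3 other nearest rows of Rfpl4 (Gm45133, Gm47692 and AC162893.1) were below the filter wherever they were listed. Rfpl4b is isolated: no row of the tables lies closer than 106510 bases (Gm17779). Of its 6 nearest rows (also 4930591E09Rik, Gm31378, Gm26535, Lama4 and Fam229b) only Fam229b, 297025 bases away, was tested, and it rose in CabZ KO 2-cell embryos (1.99 ± 1.11 to 6.13 ± 0.921 FPKM, 1.32, SE 0.26, limma adjusted p = 0.0024), where Rfpl4b was at -1.11.

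The genes whose levels followed each of the pair most closely were found by Pearson's r of log2(FPKM + 1) over the 31 libraries among 6507 genes. The libraries share tables and groups, so r is a description. For Rfpl4 these were Mcur1 (r = 0.956), a mitochondrial calcium uniporter regulator, E330034G19Rik (0.953), Cep55 (0.940), a protein of the final step of cell division, Gm2042 (0.930) and the noncoding RNA Platr30 (0.924). E330034G19Rik was the most alike in level, with 264 ± 30.4 FPKM in CabZ Het GV, 73.1 ± 29.8 in CabZ Het 2-cell, 244 ± 93.7 in CabZ KO 2-cell and 807 ± 42.0 in GFP 2-cell libraries on the scale of table reads. It departed from Rfpl4 in the ZH oocytes, at 211 ± 14.5 in Het and 176 ± 44.3 in KO.

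For Rfpl4b the closest were Gm5891 (r = 0.968), the pseudogene Gm5590 (0.965), D13Ertd608e (0.956), Dnajb9 (0.953), which encodes a co-chaperone of the endoplasmic reticulum, and Gm6902 (0.952). Dnajb9 had 2.46 ± 0.470 FPKM in ZH Het GV, 11.1 ± 1.81 in ZH KO GV, 243 ± 48.9 in CabZ Het 2-cell, 90.2 ± 28.7 in CabZ KO 2-cell, 35.4 ± 4.33 in GFP and 14.6 ± 6.26 in Zscan4 OE libraries. Gm6902 had 0.0304 ± 0.0351, 0.818 ± 1.06, 31.9 ± 4.82, 14.9 ± 8.52, 10.3 ± 2.24 and 2.77 ± 1.73 FPKM in the same groups. All 5 were at their highest mean in CabZ Het 2-cell embryos, as Rfpl4b was.

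**Figure D4:**
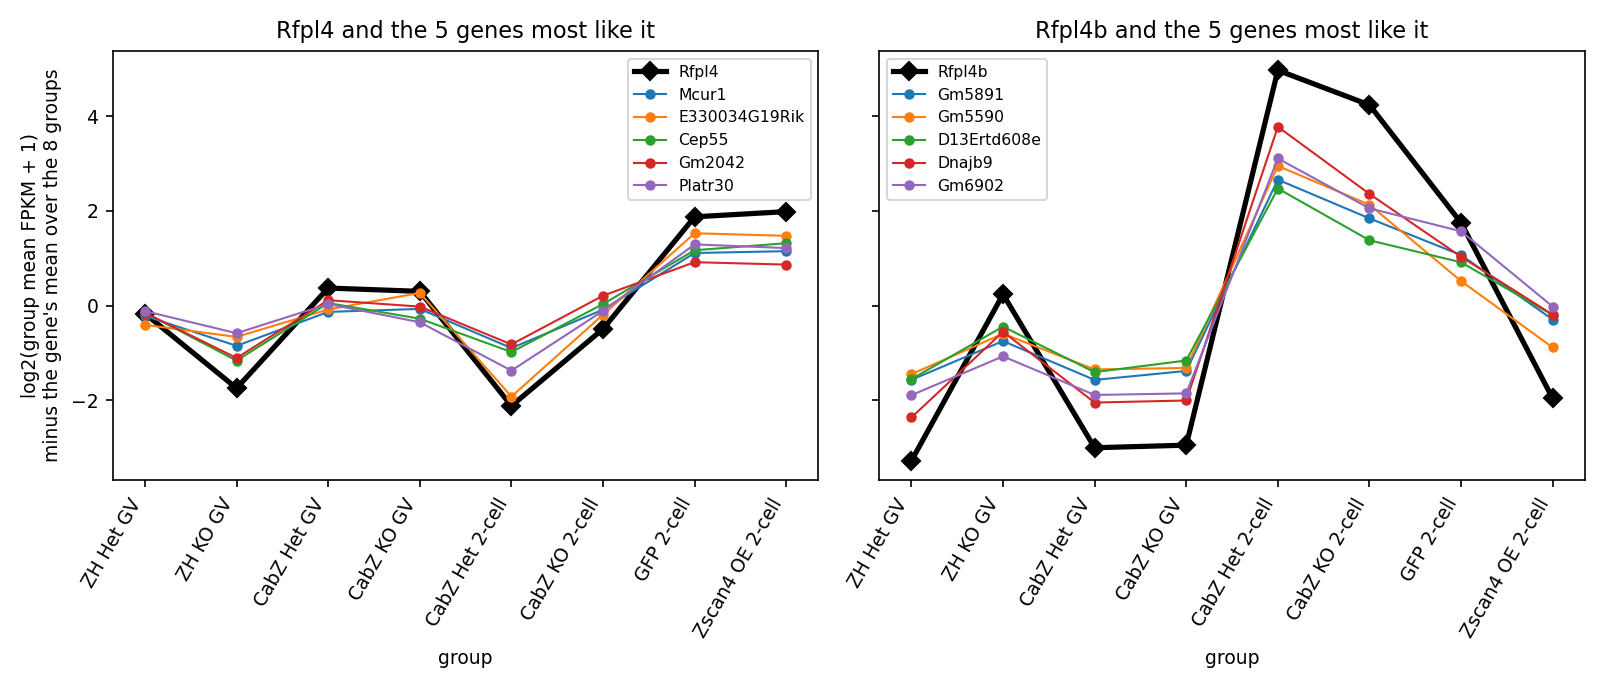
Group levels of Rfpl4 (left) and Rfpl4b (right), in black, with the 5 genes of highest Pearson r to each, as log2(group mean FPKM + 1) minus the mean of the gene over the 8 groups (vertical axis), on the scale of table reads. The genes like Rfpl4 are lowest in CabZ Het 2-cell or ZH KO GV and highest in injected embryos, and those like Rfpl4b are highest in CabZ Het 2-cell embryos.

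Accessible chromatin at the pair was read from the peaks called in each ATAC-seq library of GV oocytes. No library of either genotype had a peak within 500 bp of the start of Rfpl4 or Rfpl4b, although Rfpl4 RNA was abundant in these oocytes. Across 21951 protein-coding genes the share with such a peak was 8.59% (A), 17.6% (B) and 32.2% (C) in the Het libraries, while the KO libraries had 12.4% (A), 3.74% (B) and 4.91% (C). The libraries had 43399, 67074 and 111327 peaks in Het and 46070, 19160 and 29600 in KO.

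Within the span of Rfpl4, CabZ KO replicates B and C each had 1 peak, at chr7:5112988-5113655 (fold enrichment 4.05, -log10 q 2.14) and chr7:5113074-5113680 (fold enrichment 3.94, -log10 q 1.92), and no other library had any. The peaks share 582 bases, overlap no annotated exon and so are intronic, with summits 3674 and 3840 bases from the start. A span peak in at least 2 KO and no Het library was found for 120 of the 21951 genes (0.547%), a pattern looked for after this peak had been seen. The reverse, at least 2 Het and no KO library, held for 2213 genes (10.1%), and the peak totals of the libraries are unequal. The 300 bases of the shared stretch at its lower coordinate, which hold both summits, are shown as the sequence under that peak, chr7:5113074-5113373 of GRCm38.p6, minus strand, with CCAAT and CANNTG matches in capitals.
Rfpl4 intron peak: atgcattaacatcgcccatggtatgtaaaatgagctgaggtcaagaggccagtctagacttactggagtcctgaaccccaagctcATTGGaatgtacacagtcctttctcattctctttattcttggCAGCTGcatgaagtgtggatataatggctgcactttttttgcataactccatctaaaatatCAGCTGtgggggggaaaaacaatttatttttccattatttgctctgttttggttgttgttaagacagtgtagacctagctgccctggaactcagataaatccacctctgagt

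Of the shared stretch, 36.9% is soft-masked as repeat in the assembly. CabZ Het replicate C had the peak closest to the Rfpl4 start, with its summit 751 bases upstream (fold enrichment 3.81), and CabZ KO replicate A had its nearest peak 8052 bases from the start, beyond the end of the gene. Within 10 kb of the Rfpl4 span the KO libraries A, B and C had 1, 2 and 3 peaks and the Het libraries 0, 0 and 1. Around Rfpl4b, a peak about 17 kb beyond the start was called in Het B, Het C and KO B, with summits 16555, 16938 and 17000 bases away, and the only peak within 10 kb of the gene was in Het C (summit at 4904 bases). With 3 libraries against 3 and unequal peak totals, no test was made.

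**Figure D5:**
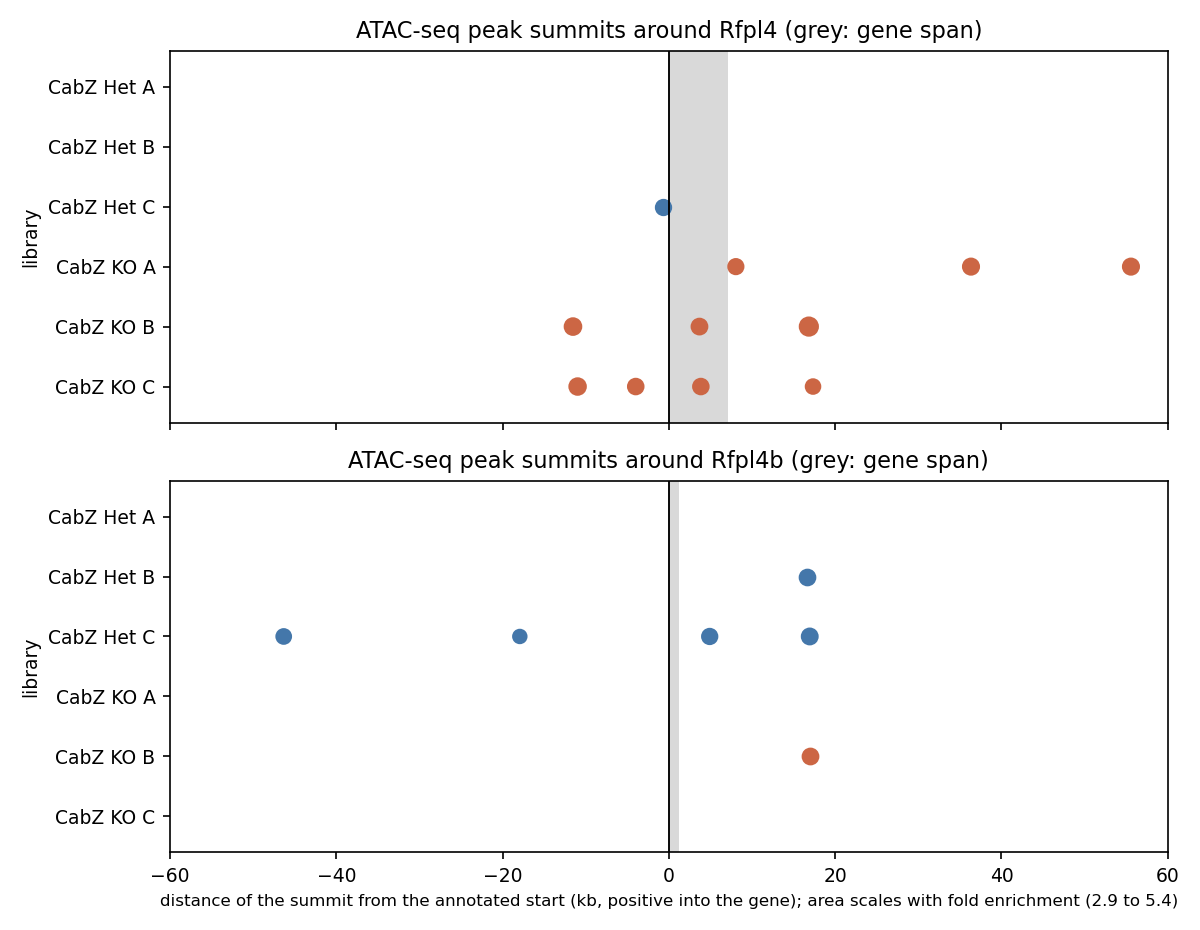
Summits of ATAC-seq peaks within 50 kb of the span of Rfpl4 (top) and Rfpl4b (bottom) in 6 CabZ GV oocyte libraries (rows), by distance in kb from the annotated start (horizontal axis, positive into the gene), with the gene span in grey and point area scaled to fold enrichment. No summit lies within 500 bp of either start, and the grey Rfpl4 span holds 1 summit in CabZ KO B and 1 in CabZ KO C.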

How the data were processed

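RNA-seq was measured in 31 libraries and ATAC-seq in 6. Per the labels and methods, reads were aligned to mm10 with STAR 2.5.3a and the authors reported FPKM. The deposited ZH and injected-embryo tables hold FPKM over the gene span plus a constant (0.01 or 0.001), which was subtracted. The deposited CabZ tables hold a score, reads divided by the square of the span, which was turned back into FPKM by multiplying by the span and scaling each library's reads, so that design differed from the planned use of FPKM as it stands. Reads were estimated from the value of 1 read (76.4% to 87.1% of low values whole within 0.05 read), and depth per library was 5819313 to 21869858 reads. Floors and read counts cover counting error only. For ATAC-seq, reads were aligned with Bowtie2 2.3 and peaks called with MACS2 per library. The deposited peak files give a score, fold enrichment as a ratio, and -log10 p and q.

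limma 3.58.1 (R 4.3.3) was run on log2(FPKM + 1) within each table, on genes whose mean reached 1 FPKM, which were called at a Benjamini-Hochberg adjusted p under 0.05 and over 2-fold. The test was checked on simulated data. Labels do not say whether libraries of a group came from separate animals, so p-values measure only the spread between libraries. Fold changes on this scale are understated for low genes. Rfpl4 and Rfpl4b were described without a test. Partners were named wherever listed, as were up to 5 called genes per list with the largest change, the 3 nearest rows on each side and the 5 genes of highest r. The genes and lists were chosen with earlier results of these data known. Gene models are from GENCODE vM21 and promoters from RefSeq (GRCm38.p6). Equal replicate numbers deviated together at r above 0.1 in only some pairs of each table, so they were not treated as pairs. Alternatives were another pseudocount, other filters, median scaling, other units, a replicate block and leaving out each library. Stage differences and the order of levels without single libraries, and the letters TATATAA, were added after the data were seen. The result of the list of E2 enzymes and ubiquitin genes in ZH oocytes is not reported here.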

Additional observations from a re-analysis of the deposited data

Results flagged for a closer look

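Of 142 groups of 4 libraries tested for a library standing far from the rest of its group, 9 had one, and chance gives about 1 in 20. Rfpl4b was at 32.0 FPKM in ZH KO oocyte replicate 2 and at 1.24 to 5.50 in the other ZH KO libraries. The same library had 5.11 FPKM of Bub1b against 2.37 to 2.51. ZH KO replicate 1 had 141 FPKM of Mos against 203 to 213. CabZ Het GV replicate 2 had 1.94 FPKM of Gm5039 against 1.19 to 1.29. CabZ KO 2-cell replicate 4 had 446 FPKM of Ooep against 127 to 173. Among the other 2-cell libraries, Gdf9 was at 14.1 FPKM in CabZ Het replicate 4 (9.83 to 10.6 elsewhere), Ube2t at 10.1 in CabZ Het replicate 1 (20.1 to 20.4), Psma6 at 2.64 in CabZ KO replicate 3 (1.47 to 1.67) and Ube2a at 10.2 in CabZ KO replicate 1 (7.99 to 8.31).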

How the results depend on the processing

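The differences of Rfpl4 and Rfpl4b kept their sign under the other pseudocount, median scaling and other units, and moved beyond 1 SD in 2 cases: Rfpl4 in CabZ 2-cell embryos on the values as they stand (0.96) and Rfpl4b in the libraries labelled Zscan4 OE with a pseudocount of 0.1 (-4.13). With 1 library left out they ranged from -1.87 to -1.62 (Rfpl4) and 1.47 to 2.77 (Rfpl4b) in ZH oocytes, 1.36 to 1.84 and -1.52 to -0.42 in CabZ 2-cell embryos, 0.06 to 0.16 and -3.76 to -3.39 in injected embryos, and -0.16 to -0.01 and -0.05 to 0.18 in CabZ GV oocytes. Called genes (list genes in brackets) numbered 1023 (22) in ZH, 184 (2) in CabZ GV, 2914 (37) in CabZ 2-cell and 62 (3) in injected embryos. A pseudocount of 0.1 gave 1645 in ZH and 328 in CabZ GV, a mean of at least 5 FPKM gave 578, 109, 1650 and (1), and no fold threshold gave 3006 (58), 883 (8) and 4376 (61). The CabZ values as they stand gave 10 (0) and 308 (5). In injected embryos no filter gave 5 (0), and leaving out 1 library gave 18 to 99 (1 to 4), with 18, 20 and 32 without GFP A, B and C, 27 without Zscan4 OE B and 99 without Zscan4 OE C. The corresponding ranges were 884 to 1173 (18 to 28), 171 to 219 (2 to 3) and 2695 to 3137 (34 to 42). The replicate block gave 2 (0) in injected embryos and ended the call of Zar1 in ZH (adjusted p = 0.052), but equal numbers mark no stated pairing and their deviations correlated at -0.41 to 0.40. Uncalled partners changed sign: in injected embryos Ube2a (0.069) and Ube2b (0.0060) with median scaling and Ube2a without 1 library (-0.16 to 0.18), and in CabZ GV Psmb1 (-0.0075 to 0.14) and Ube2b (-0.11 to 0.10). The cause was not tested. Median scaling set the median of all genes at -0.19 in ZH and 0.13 in CabZ 2-cell. Rfpl4b in GV oocytes rested on few reads, which limits any comparison there. On the CabZ values as they stand most list genes fell below the filter and gave no value.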
